A study of Homo sapiens with 8 samples.

Results

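The human alkaline phosphatase genes are ALPP (placental type), ALPPL2 (placental-like or germ cell type, now named ALPG), ALPI (intestinal type) and ALPL (tissue-nonspecific type). Each was read on the arrays by a single probe, found by its gene name among the probes that are not controls, so 4 of 50599 probes, or 4 of 36337 gene names, were examined. The genes were chosen by the size of the ALPP and ALPPL2 changes on these same arrays. The changes of ALPP and ALPPL2 are therefore given as a description, with no test.

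Alkaline phosphatases are zinc enzymes that remove phosphate groups from many substrates, and they sit on the outer face of the cell membrane on a glycosylphosphatidylinositol (GPI) anchor. ALPP is a product of the placental syncytiotrophoblast, ALPPL2 is known from placenta, testis and germ cell tumours, ALPI from the brush border of small-intestinal enterocytes, and ALPL from bone, liver and kidney, where it breaks down pyrophosphate. ALPP, ALPPL2 and ALPI lie side by side on chromosome 2 and arose by duplication, while ALPL lies alone on chromosome 1.

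RNA was measured in DLD1 cells, an established line from a human colorectal adenocarcinoma, on 8 single-colour Agilent arrays in 4 groups of 2. Cells received a control siRNA (siCONT) or an siRNA to UHRF1, the protein that brings DNMT1 to newly copied DNA, and after 48 h they received ethanol (mock) or 300 nM of the histone deacetylase inhibitor trichostatin A (TSA) for 24 h. Each siRNA was combined with each agent, which gives the untreated control (siCONT mock), either intervention alone, and UHRF1 depletion together with TSA. The arrays of a depletion group carry different siRNAs (siUHRF1-1 and siUHRF1-2), taken as its replicates. Every group is the same transfected line, and the depletion was transient.

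The share of probes well above background was 43.3% to 48.0% per array. All 13 markers of colonic epithelium that were looked up, EPCAM and CDX2 among them, were above background on all arrays. Their levels were not all steady. From siCONT mock to siCONT TSA the log2 level of EPCAM went from 7.35 to 7.34 and that of CDX2 from 5.95 to 6.02. GPA33 went from 2.98 to −2.51 and LGALS4 from 1.96 to −1.61. With UHRF1 depletion under mock LGALS4 was at 5.07, and KRT20 at 1.20 against −1.73 in siCONT mock. Against siCONT with the same agent, the UHRF1 signal left after depletion was between 24.8% and 31.9% under mock and between 11.1% and 16.7% under TSA. UHRF1 was also lower with TSA alone, at a log2 level of 1.03 in siCONT TSA against 1.99 in siCONT mock. The part of this difference in the results under TSA was not tested. Both siCONT arrays of an agent differed by only 1.09 to 1.18 times the noise of repeated spots, against 10.5 to 12.7 times for the siRNAs, so they were counted as 1 sample in each mean. All arrays lay on 1 slide, with mock arrays in the first row and TSA arrays in the second, so TSA and slide row cannot be told apart. Nothing states that the arrays came from separate cultures, and p-values then measure only the spread between these arrays.

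The probes are shown first because the genes are closely related and the letters decide which transcript a probe reads. Each probe is 60 bases long, and its final 30 bases are given 5′ to 3′ as in the deposited array files, with coordinates in hg19. Capitals mark AATAAA, the hexamer of the polyadenylation signal.
ALPP (NM_001632, chr2:233247198-233247257): gcatagatttctcaagaaggaagactcccc
ALPPL2 (NM_031313, chr2:233275347-233275406): ttctgggaaacacaaagcaatAATAAAagg
ALPI (NM_001631, chr2:233323933-233323992): accttcacctcctagagataaaccagcctc
ALPL (NM_000478, chr1:21903084-21903884): atgtctccatggtggactatgctcacaaca
The ALPL probe covers a genomic interval longer than itself, so it crosses a splice junction. The longest run of letters shared by any 2 of the 4 probes was 5 to 8 bases over the 6 pairs, with 8 for ALPP and ALPPL2. Against every other probe of the array the longest shared run was 13 bases for ALPI, 14 for ALPP, 14 for ALPL and 16 for ALPPL2. Binding of a probe to the transcript of a related gene was not tested, because transcript sequences were not used here.

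The start regions of the chromosome 2 genes were compared next, since ALPP, ALPPL2 and ALPI share an origin and differed in signal. The 120 bases before each annotated start are given from RefSeq (GRCh38.p14, forward strand). Capitals mark TTTAAA, which resembles a TATA box, and GGGCGG, the core of a GC box.
ALPP (chr2:232378631-232378750): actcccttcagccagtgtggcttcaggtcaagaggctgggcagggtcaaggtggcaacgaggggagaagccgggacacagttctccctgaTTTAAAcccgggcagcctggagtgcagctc
ALPG, the current symbol of ALPPL2 (chr2:232406724-232406843): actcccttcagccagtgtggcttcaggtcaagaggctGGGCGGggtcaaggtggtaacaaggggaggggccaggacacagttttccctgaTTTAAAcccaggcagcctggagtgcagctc
ALPI (chr2:232456033-232456152): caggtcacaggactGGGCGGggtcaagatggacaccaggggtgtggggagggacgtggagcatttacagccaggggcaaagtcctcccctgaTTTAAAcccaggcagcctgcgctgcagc
ALPP and ALPG were identical at 112 of these 120 bases and differed at 8. Over the whole windows of 300 bases the aligned bases were 87.0% identical for ALPP and ALPG, 71.8% for ALPP and ALPI, and 66.8% for ALPG and ALPI. Both hexamers were searched on both strands, and the letters of neither overlap the other. TTTAAA was found in all 3 windows, at −30 in ALPP and ALPG and at −28 in ALPI, and in 12.2% of 35116 RefSeq promoter windows of the same length. GGGCGG was found at −83 in ALPG and −106 in ALPI and not in the ALPP window, and in 45.0% of all windows. None of this shows that a factor binds there.

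These windows held fewer CpG sites than the median promoter window. CpG is the dinucleotide whose methylation UHRF1 helps to maintain. There were 6 CpG in the ALPP window, 6 in ALPG and 7 in ALPI, where the median over all promoter windows was 14. Of all windows, 33.7% held fewer CpG than ALPP or ALPG and 36.8% fewer than ALPI. The observed over expected CpG ratio was 0.22 in ALPP, 0.21 in ALPG and 0.26 in ALPI, against a median of 0.58. A lower ratio was found in 23.7%, 23.0% and 28.7% of all windows. The 3 annotated ALPL starts held 11, 42 and 9 CpG. DNA methylation was not measured on these arrays.

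ALPP was dim in untreated cells and bright on all TSA arrays. Its background-subtracted intensity was 49.0 and 49.3 on the siCONT mock arrays and 77.6 (siUHRF1-1) and 64.2 (siUHRF1-2) after UHRF1 depletion with mock. With TSA it was 2465 and 2487 in siCONT cells, and 3134 (siUHRF1-1) and 5922 (siUHRF1-2) in depleted cells. The lowest TSA array thus lay far above the highest mock array, and the mock groups were close to each other.

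ALPPL2 had a further step that ALPP had only in small part. Its intensity was 240 and 211 in siCONT with mock and 342 (siUHRF1-1) and 199 (siUHRF1-2) in depleted cells with mock, so these groups overlapped. It was 1099 and 1107 in siCONT cells with TSA. With both UHRF1 depletion and TSA it reached 17102 (siUHRF1-1) and 22519 (siUHRF1-2), apart from every other array.

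**Figure D1:**
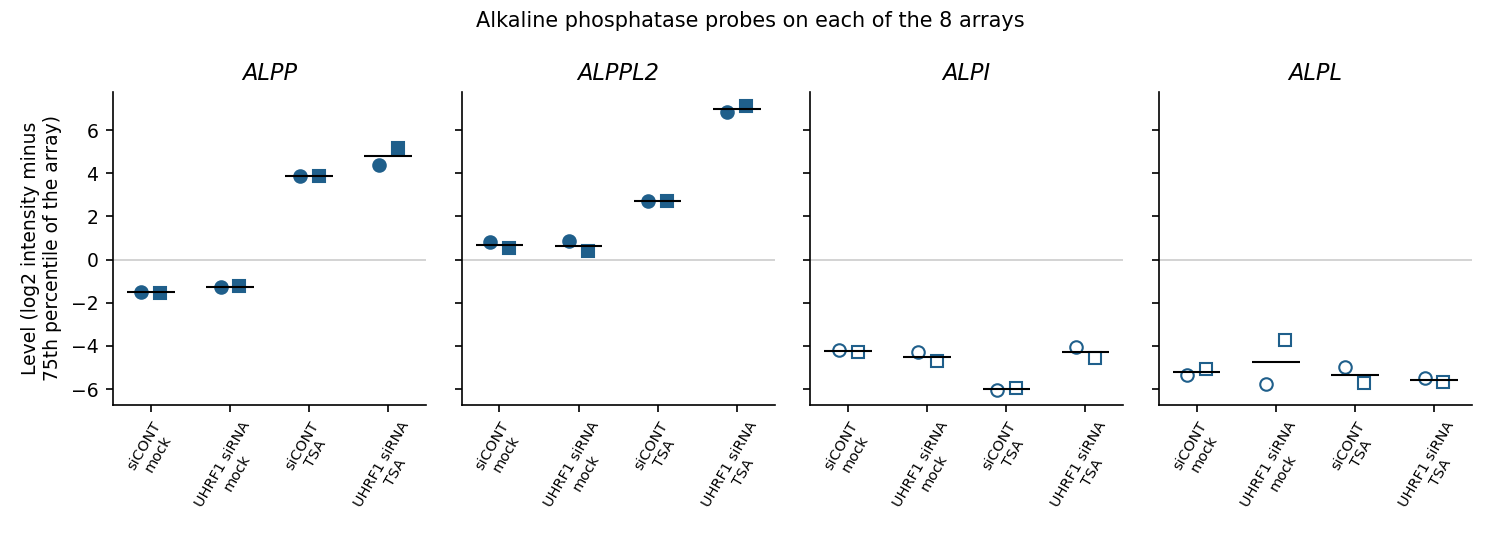
Level of each alkaline phosphatase probe on the 8 arrays (y axis: log2 intensity minus the 75th percentile of the array; circle, array or siRNA 1; square, array or siRNA 2; filled, well above background; open, not; line, mean of the group). ALPP is high on all 4 TSA arrays, ALPPL2 is highest with UHRF1 depletion plus TSA at 6.97, and ALPI and ALPL are below background throughout. The probes bind with different strength, so heights are not comparable between panels.

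As log2 levels, with the array's 75th percentile set to 0, the order of the ALPP levels was siCONT with mock (−1.51), depletion with mock (−1.25 ± 0.04, SD, n = 2 siRNAs), siCONT with TSA (3.88) and depletion with TSA (4.78 ± 0.56, SD, n = 2 siRNAs). The first 2 of these lay 0.26 apart, about the SE of 0.25. That SE is shared over all 4 groups, and the SD between the mock arrays was smaller (0.03 in siCONT, 0.04 with depletion). Both depleted mock arrays (−1.28 and −1.22) lay above both siCONT mock arrays (−1.49 and −1.53). The order for ALPPL2 was depletion with mock (0.63 ± 0.31, SD, n = 2 siRNAs), siCONT with mock (0.68), siCONT with TSA (2.71) and depletion with TSA (6.97 ± 0.19, SD, n = 2 siRNAs). Its mock groups differed by less than the spread between siRNAs. In these bulk samples, a few cells with much ALPP or ALPPL2 RNA cannot be told apart from many cells with little.

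UHRF1 depletion alone was compared with siCONT under mock to see whether loss of UHRF1 is enough. The change of ALPP was 0.26 (SE 0.25) and that of ALPPL2 was −0.05 (SE 0.19). Between the siRNAs the ALPPL2 change had opposite signs, 0.17 for siUHRF1-1 and −0.27 for siUHRF1-2, each set against the siCONT mock mean.

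The effect of TSA without depletion was read in siCONT cells. ALPP was 41.9-fold higher (log2 change 5.39, SE 0.25) and ALPPL2 4.08-fold higher (2.03, SE 0.19). Among 23239 probes tested, ALPP had the rank 22 from the top and ALPPL2 the rank 1020. Since both genes were chosen by the size of their changes on these arrays, the ranks are a description and no measure of how unusual they are.

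UHRF1 depletion plus TSA was compared with siCONT mock. Both probes ended at nearly the same size, with ALPP 78.5-fold (log2 change 6.29, SE 0.25) and ALPPL2 78.3-fold higher (6.29, SE 0.19). Counting the siCONT arrays as 1 sample widened these SE to 0.39 and 0.32. The share already seen without depletion differed: TSA alone gave 85.6% of the ALPP change on the log2 scale and 32.3% of the ALPPL2 change. On the linear scale the level with TSA alone was 53.4% of that with depletion plus TSA for ALPP and 5.22% for ALPPL2. Set against the siCONT mock mean, the ALPPL2 change minus the ALPP change was −3.36 log2 units on both siCONT TSA arrays. With depletion plus TSA the same difference was 0.26 (siUHRF1-1) and −0.26 (siUHRF1-2).

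Under TSA, UHRF1 depletion was compared with siCONT. ALPPL2 was 19.2-fold higher (log2 change 4.26, SE 0.19), with 4.12 for siUHRF1-1 and 4.40 for siUHRF1-2. ALPP was 1.87-fold higher (0.91, SE 0.25), with 0.51 for siUHRF1-1 and 1.30 for siUHRF1-2. The siRNAs thus gave closer values for ALPPL2 than for ALPP. The interaction, by which the UHRF1 effect was larger with TSA than with mock, was 4.31 (SE 0.27) for ALPPL2 and 0.65 (SE 0.35) for ALPP. With the siCONT arrays counted as 1 sample in the fit, the SE for depletion under TSA grew to 0.32 for ALPPL2 and 0.39 for ALPP. The SE of the interaction grew to 0.45 for ALPPL2 and 0.56 for ALPP.

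**Figure D2:**
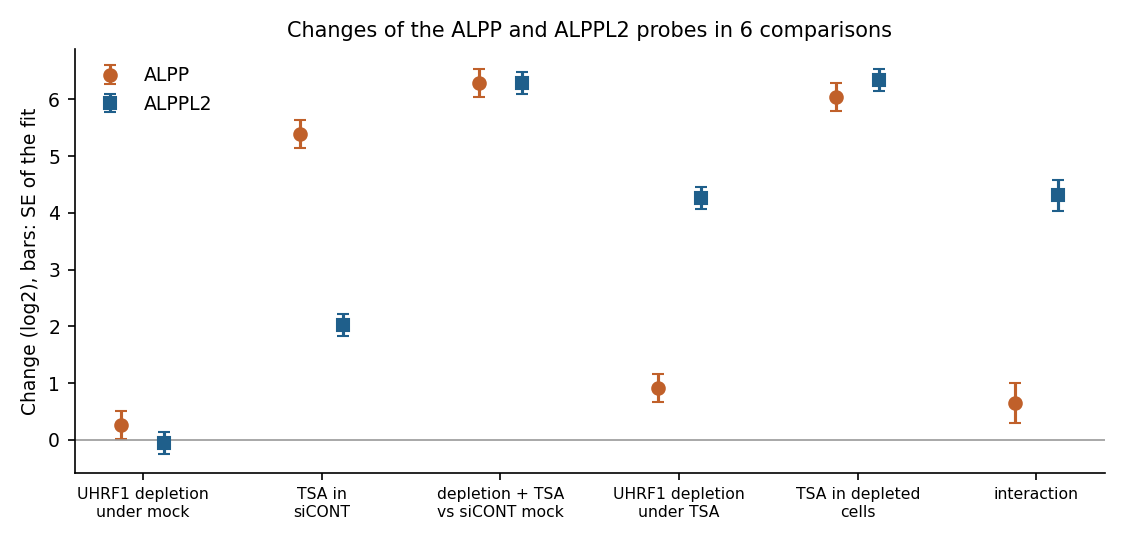
Change of the ALPP (circles) and ALPPL2 (squares) probes in 6 comparisons (y axis: log2 change; bars: SE of the limma fit over 8 arrays). Both meet at 6.29 for UHRF1 depletion plus TSA against siCONT mock, whereas TSA alone gives 5.39 for ALPP and 2.03 for ALPPL2 and depletion under TSA gives 0.91 and 4.26.

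ALPI and ALPL, the types of intestine and of bone and liver, were not well above background on any of the 8 arrays. The ALPI intensity lay between 2.52 and 9.67, and that of ALPL between 3.24 and 11.4, where the dimmest probe above background had between 12.2 and 14.0. No fold change can be given for them and they were not tested. ALPI had its lowest values, 2.52 and 2.74, on the siCONT TSA arrays, and without a filter on dim probes 2 of its 6 comparisons passed the threshold. A difference between signals that are all below background says nothing certain about its RNA.

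The other genes around the chromosome 2 cluster were examined to see whether the changes stopped at the alkaline phosphatases. Within 250 kb of an alkaline phosphatase probe lay 21 other probes of 14 gene names, of which 6 were never above background. For depletion plus TSA against siCONT mock 12 could be tested, and 2 were called higher and 0 lower, where 14.5% of all tested probes were called higher and 11.1% lower (limma, adjusted p under 0.05 and at least 2-fold). This count is near the share over all tested probes, so it does not set the neighbourhood apart. The 2 higher probes read ECEL1P2, 3.28 kb past the ALPP probe, and PRSS56, 143 kb past it. Both were below background in siCONT mock and entered the comparison only through depletion plus TSA, so their count is a description.

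ECEL1P2, a pseudogene related to ECEL1, has its probe 3.28 kb past that of ALPP and before ALPPL2, which is 28.1 kb from ALPP. Its intensity was between 3.15 and 3.67 on the 6 other arrays, below background, and 115 (siUHRF1-1) and 239 (siUHRF1-2) with UHRF1 depletion plus TSA. It was at least 11.2-fold higher than in siCONT mock (means 0.09 and −5.31 in log2) and at least 14.2-fold higher than in siCONT with TSA. Such a bound sets the bright group's mean against the dim group's mean of, per array, the lowest signal above background or the probe's own if higher.

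PRSS56, which codes for a serine protease known from the eye, lies 143 kb past the ALPP probe, on the far side of ALPI. Its intensity was below background on the mock arrays, 25.2 and 18.1 in siCONT with TSA, and 234 (siUHRF1-1) and 235 (siUHRF1-2) with depletion plus TSA. It was at least 15.8-fold higher with depletion plus TSA than in siCONT mock (limma adjusted p 0.000708, or 0.0101 with siCONT as 1 sample). Under TSA, depletion raised it by 3.57 (SE 0.54, adjusted p 0.0116), a call that was lost with siCONT as 1 sample (adjusted p 0.1). With TSA alone it was at least 1.33-fold higher, since the siCONT mock arrays give only a bound. That call was lost with siCONT as 1 sample (adjusted p 0.24), with normexp background correction (log2 change 0.08) and without any 1 of the siCONT arrays or of the TSA arrays of depleted cells (adjusted p 0.0552 to 0.175).

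The rest of the neighbourhood stayed below the threshold or changed the other way. ECEL1, CHRND and CHRNG, which lie on either side of PRSS56, were below background on all arrays, as ALPI was. DIS3L2, an RNA exonuclease gene upstream of ALPP, TIGD1, and EIF4E2, a cap-binding protein gene, had no probe called for depletion plus TSA, except that 1 DIS3L2 probe (−0.73) was called lower with quantile normalization (−1.16) or median scaling (−1.13). An EFHD1 probe (−1.50, limma adjusted p 0.0618) was called lower there with quantile normalization (−1.81), median scaling (−1.90) or only probes above background on all arrays (−1.50). With TSA alone 11 probes could be tested, and 1 (PRSS56) was called higher and 2 lower, where 10.4% of all tested probes were higher and 8.21% lower. The 2 lower probes both read EFHD1 (−1.85, adjusted p 0.0372, and −2.19, adjusted p 0.0349), and both calls were lost with siCONT as 1 sample (adjusted p 0.292 and 0.294) or without any 1 siCONT array or TSA array (adjusted p 0.0603 to 0.163). With UHRF1 depletion alone 10 could be tested and 0 were called, where 3.13% of all tested probes were higher and 0.987% lower.

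**Figure D3:**
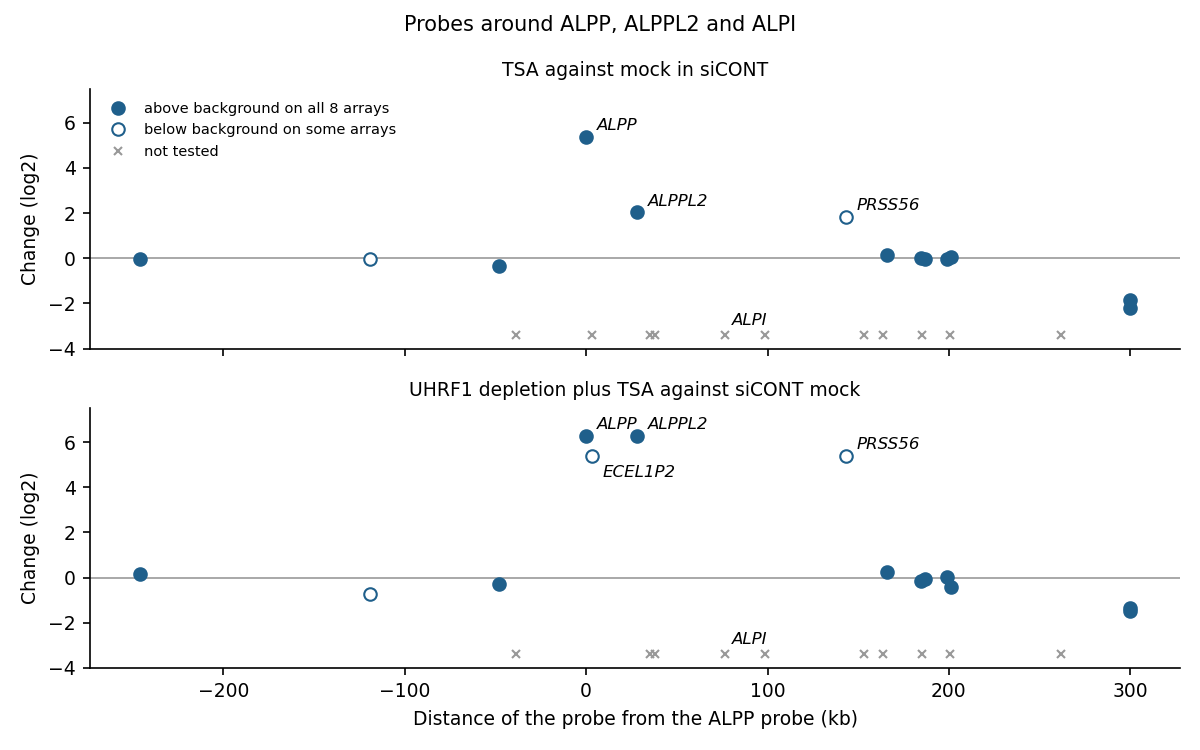
Change of the probes within 250 kb of ALPP, ALPPL2 or ALPI (x axis: distance from the ALPP probe in kb; y axis: log2 change; filled, above background on all 8 arrays; open, below background on some, so that the change is no bound; crosses, not tested). With TSA alone ALPP stands at 5.39, and with UHRF1 depletion plus TSA ALPP, ECEL1P2, ALPPL2 and PRSS56 stand above the rest, while EIF4E2 and DIS3L2 lie near 0.

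Around ALPL on chromosome 1 there were 13 other probes of 10 gene names, of which 7 could be tested. With depletion plus TSA 0 were called higher and 1 lower, HSPG2, which codes for the basement membrane proteoglycan perlecan (−1.46, SE 0.12, adjusted p 0.000361, or 0.0257 with siCONT as 1 sample). HSPG2 also fell with TSA alone (−1.36, adjusted p 0.000798, or 0.1 with siCONT as 1 sample). An unnamed transcript, XLOC_000371, was called higher with TSA alone (2.91, adjusted p 0.0324, or 0.279 with siCONT as 1 sample and 0.113 to 0.122 without any 1 siCONT array). With depletion plus TSA XLOC_000371 had a change of 2.42 and just missed the threshold (limma adjusted p 0.0502). It was called there with a replicate block, normexp, quantile normalization, median scaling, the percentile over detected probes, or only probes above background on all arrays (adjusted p 0.0284 to 0.0486). NBPF3, RAP1GAP and USP48 were not called in either comparison. Of all tested probes 14.5% were called higher and 11.1% lower with depletion plus TSA, and 10.4% and 8.21% with TSA alone.

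The genes that place alkaline phosphatases on the membrane and share their substrates were counted from lists. A list gene given as at least so many fold higher or lower was below background in the dimmer group. It entered that comparison only through the brighter one, so its adjusted p is a description. The same holds for every count and median that includes such a gene. All 29 genes of GPI anchor synthesis and attachment were tested. For depletion plus TSA against siCONT mock 0 were called higher and 4 lower, with a median change of −0.07 where the median of all tested probes was −0.14. Of all tested probes 14.5% were called higher and 11.1% lower there, and 10.4% and 8.21% with TSA alone. PIGU, a subunit of the transamidase that joins the anchor to the protein, fell by 1.65 (SE 0.21, adjusted p 0.00151, or 0.0326 with siCONT as 1 sample). PIGZ, a mannosyltransferase of the anchor, was above background on 1 of 2 arrays of depletion plus TSA, so its fitted change of −3.98 (adjusted p 0.00964, or 0.055 with siCONT as 1 sample) is not an exact size. In siCONT cells it was at least 13.6-fold lower with TSA than with mock (adjusted p 0.00552, or 0.101 with siCONT as 1 sample). With TSA alone 1 was higher and 4 lower. These calls were lost with siCONT as 1 sample, as were most calls over all tested probes. With depletion alone 0 were called, where 3.13% of all tested probes were higher and 0.987% lower.

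The list of enzymes and transporters of phosphate, pyrophosphate and nucleotides was headed as extracellular, but it also holds the mitochondrial PPA2. With depletion plus TSA 9 of 24 tested were called higher and 2 lower (median change 0.17), against 14.5% higher and 11.1% lower of all tested probes. ENPP2 entered this comparison only through depletion plus TSA, so these counts and the median are a description. ENPP1, which makes pyrophosphate from ATP and so acts opposite to ALPL, rose by 1.82 (SE 0.15, adjusted p 0.000395). ENTPD8, a nucleotide phosphohydrolase of the cell surface, rose by 4.07 (SE 0.30, adjusted p 0.000287), and ENPP2, the lysophospholipase autotaxin, was at least 3.66-fold higher (adjusted p 0.00015). These 3 calls held with siCONT as 1 sample (adjusted p 0.0192, 0.00945 and 0.00675).

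PPA2, the mitochondrial pyrophosphatase, fell by 1.77 (SE 0.11, adjusted p 0.000166, or 0.0154 with siCONT as 1 sample). NT5E, the GPI-anchored enzyme that turns AMP into adenosine, fell by 1.56 (SE 0.24, adjusted p 0.00333), a call lost with siCONT as 1 sample (adjusted p 0.0533). The phosphate transporter SLC20A1 had a change of −0.02 (adjusted p 0.922). Of all tested probes 10.4% were higher and 8.21% lower with TSA alone, and 3.13% and 0.987% with depletion alone. With TSA alone 5 of 23 in this list were called higher and 2 lower, and with depletion alone 4 of 22 were higher and 1 lower. With siCONT as 1 sample the calls of this list were lost in both of these comparisons. Most calls over all tested probes were lost there too.

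Other proteins with a GPI anchor were the largest list in calls. With depletion plus TSA 14 of 29 tested were higher and 4 lower (median change 1.14), where 14.5% and 11.1% of all tested probes were. Genes below background in siCONT mock, such as CD52, are among the higher ones, so these counts and the median are a description. With TSA alone 13 of 26 were higher and 5 lower (median 0.81), where 10.4% and 8.21% were, and with depletion alone 5 of 23 were higher and 0 lower, where 3.13% and 0.987% were. With siCONT as 1 sample all calls with depletion alone were lost, most with TSA alone, and some with depletion plus TSA. Over all tested probes nearly all, most and some calls were lost in these comparisons. CD52, a small glycopeptide of lymphocytes, was at least 8.68-fold higher with depletion plus TSA (adjusted p 0.00144, or 0.02 with siCONT as 1 sample). LY6D, a surface protein of keratinocytes, was at least 6.54-fold higher (adjusted p 0.0127), a call lost with siCONT as 1 sample (adjusted p 0.0797) or without either siCONT mock array or siUHRF1-1 under TSA (0.0549 to 0.0698). EFNA1, an ephrin ligand, fell by 2.13 (SE 0.27, adjusted p 0.00154, or 0.0305).

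ALPI belongs to the enterocyte brush border, so that list and the transcription factors that act on ALPI were counted. Of 23 brush border genes, 8 could be tested for depletion plus TSA, and 4 were called higher and 0 lower (median change 1.24), against 14.5% and 11.1% of all tested probes. CDHR5 entered this comparison only through depletion plus TSA, so these counts and the median are a description. CDHR5, a cadherin that links microvilli, was at least 8.61-fold higher (adjusted p 0.00116), and CA2, a carbonic anhydrase, rose by 2.00 (SE 0.21, adjusted p 0.000839). Both calls held with siCONT as 1 sample (adjusted p 0.0198 and 0.0238). Villin (VIL1), which bundles actin in microvilli, had a change of −1.08 (adjusted p 0.0541, or 0.00994 without siUHRF1-2 under TSA). Among all tested probes TSA alone gave 10.4% higher and 8.21% lower, and depletion alone 3.13% and 0.987%. With TSA alone 3 of 7 brush border genes were higher and 1 lower, and with depletion alone 3 of 9 were higher. With siCONT as 1 sample these calls were lost in both comparisons, as were most calls over all tested probes.

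Of the 10 tested transcription factors, 0 were called higher and 2 lower with depletion plus TSA (median change −0.09), against 14.5% and 11.1% of all tested probes. The shares of all tested probes were 10.4% and 8.21% with TSA alone, and 3.13% and 0.987% with depletion alone. CDX2, the caudal factor of intestine, had a change of 0.02 and CDX1 of −0.19 (adjusted p 0.962 and 0.394). HNF4A, a nuclear receptor of gut and liver epithelium, was at least 1.89-fold lower (adjusted p 0.00542), a call lost with siCONT as 1 sample (adjusted p 0.0689). KLF4, a factor of differentiated gut epithelium, rose by 1.28 with TSA alone (SE 0.14, adjusted p 0.00157, or 0.121 with siCONT as 1 sample) and had a change of 0.21 with depletion plus TSA (adjusted p 0.253). With TSA alone 1 of 10 was higher and 2 lower, and with depletion alone 0 were called. The TSA calls were lost with siCONT as 1 sample, as were most calls over all tested probes.

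ALPP and ALPPL2 are best known from placenta and germ cells, so markers of both were examined beside them. Of 34 trophoblast genes on the array, 4 were above background on both arrays of siCONT mock and 7 on both arrays of depletion plus TSA. Their summed level lay between 1.28 and 1.36 in siCONT with mock, between 1.93 and 2.46 in depletion with mock, between 1.86 and 1.94 in siCONT with TSA, and between 2.78 and 3.24 in depletion with TSA. For depletion plus TSA 9 could be tested, and 6 were called higher and 0 lower (median change 2.01), against 14.5% and 11.1% of all tested probes. With TSA alone it was 2 of 6 and with depletion alone 1 of 4, all higher. With siCONT as 1 sample part of the TSA calls and the depletion call were lost. Most calls over all tested probes were lost there too. Of all tested probes 10.4% were called higher with TSA alone and 3.13% with depletion alone. A gene seen in depleted TSA cells only enters the test through that group, so the counts of this list are a description. CSH1 and HSD17B1 were above background on both arrays of every group, while 22 of the 34 genes were below it on both arrays of depletion plus TSA. GCM1, a factor that defines the syncytiotrophoblast, was below background on all arrays.

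PLAC1, a surface protein of trophoblast, was at least 8.08-fold higher under TSA in siCONT cells and at least 23.8-fold higher after depletion plus TSA (adjusted p 0.000228 and 5.25e-05). INSL4, an insulin-like hormone of placenta, was at least 10.1-fold and 15.9-fold higher (adjusted p 0.0033 and 0.00118). With siCONT as 1 sample the adjusted p for depletion plus TSA were 0.00492 and 0.0202, while INSL4 missed the threshold with TSA alone (adjusted p 0.1). The part of these markers in the ALPP and ALPPL2 levels was not tested.

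Of 24 germ cell and pluripotency genes, 13 could be tested for depletion plus TSA, and 5 were called higher and 0 lower (median change 0.96), against 14.5% and 11.1% of all tested probes. The shares of all tested probes called higher were 10.4% with TSA alone and 3.13% with depletion alone. ZFP42 (REX1) was at least 6.36-fold higher and DPPA2 at least 2.45-fold higher. ZFP42 and DPPA2 were below background in the other 3 groups and entered the test only through the bright group, so they and the count are a description. With TSA alone 1 of 8 was higher, and with depletion alone 0 of 7. The TSA call was lost with siCONT as 1 sample, as were most calls over all tested probes. The summed level of the list moved little, from 5.76 to 5.80 in siCONT with mock to 5.46 to 5.47 in depletion with TSA. Of the 24 genes, 7 were above background on both arrays of siCONT mock and 13 on both arrays of depletion plus TSA. DND1, KIT, KLF17, POU5F1, TDGF1, TFAP2C and UTF1 were so in every group. NANOG was below background on all arrays.

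**Figure D4:**
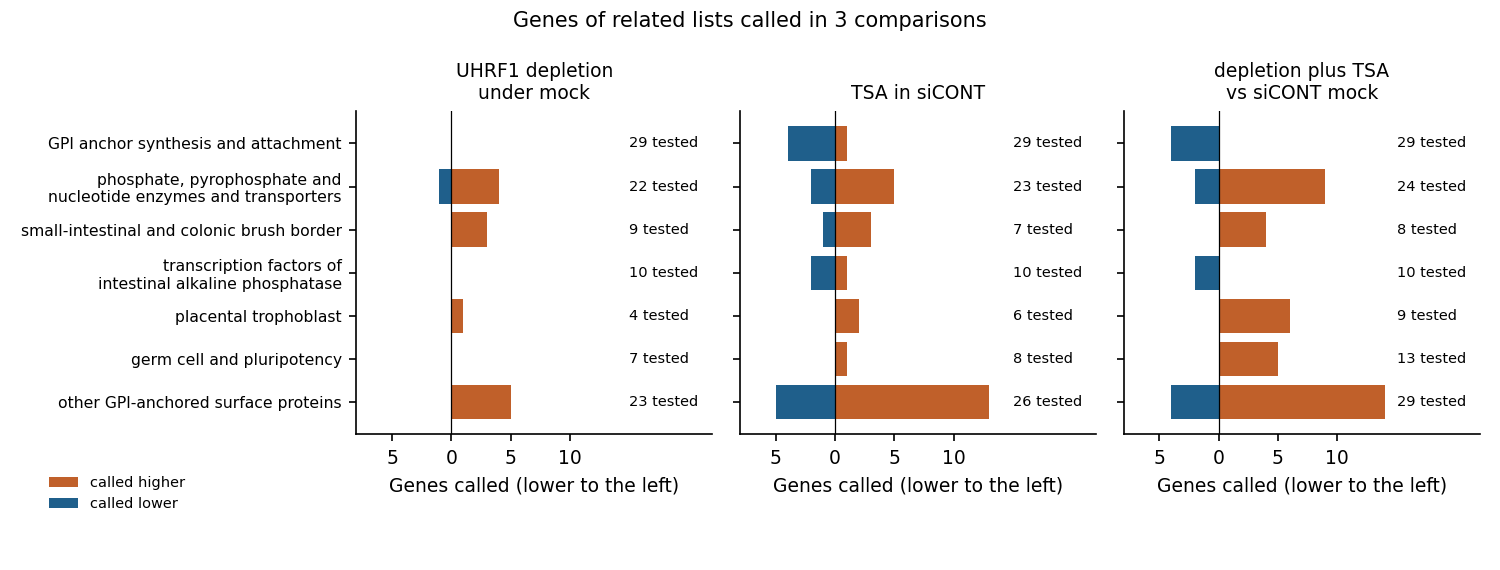
Number of genes called higher (right of 0) and lower (left of 0) in 7 lists related to the alkaline phosphatases, in 3 comparisons (limma, adjusted p under 0.05 and at least 2-fold; the number tested is printed at the right). With UHRF1 depletion plus TSA the GPI anchor list has 0 higher and 4 lower and the trophoblast list 6 higher and 0 lower, where 14.5% of all tested probes were higher and 11.1% lower. Counts that include genes below background in the dimmer group are a description.

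The genes with the most similar scanner profiles were found by the root mean square difference from siCONT mock over the 8 arrays, among 24587 other profiles. Nearest to ALPPL2 were FLJ13744 (0.45 log2 units), LOC100505817 (now LINC02582, 0.51), SLC8A2, a sodium-calcium exchanger (0.61), CEND1 (0.62) and FXYD4 (0.67). All 5 were below background on the siCONT mock arrays, and LOC100505817 also on the siCONT TSA arrays, which ALPPL2 was not. Nearest to ALPP were TGM2, a transglutaminase (0.52), the unnamed transcript XLOC_004834 (0.58), the beta globin HBB (0.59), CYP1A1, a cytochrome P450 (0.61), and the alpha globin HBA2 (0.68). These 5 were also below background under mock and above it on all 4 TSA arrays, so the ALPP probe differed from them in being measurable throughout. Since the mock values of all 10 genes are below background, the distances and their order are a description of scanner values only. No gene was on both lists.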

How the data were processed

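The authors extracted the arrays with Agilent Feature Extraction 10.7 and deposited 1 file per array with a background-subtracted processed intensity for each spot, not scaled between arrays; the deposited value table held the same intensity within rounding. Outlier spots were left out and repeated spots averaged. Levels are log2(processed intensity) minus the array's 75th percentile over non-control probes. limma 3.58.1 in R 4.3.3 (lmFit, eBayes) fitted 4 group means on 8 arrays, with 4 residual degrees of freedom; two-sided p-values were adjusted by Benjamini-Hochberg over all probes tested. A probe was tested where both arrays of 1 or more compared groups lay well above background, and called at an adjusted p under 0.05 and at least 2-fold. A gene in a list was read by its brightest probe. Named genes were all those within 250 kb, the 5 nearest profiles, and from each list the 2 largest called rises and 2 largest called falls, plus 8 set genes; 1 gene that this rule names is not reported here. The fit was tested on simulated data. The same replicate number did not pair all groups: the deviations correlated between −0.06 and 0.34. Alternatives were the siCONT arrays as 1 sample, a replicate block, normexp, other scalings and filters, the authors' value table, and leaving out each array. The genes, lists and tests were chosen with earlier results of these data known. Precision is limited by the number of arrays.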

Additional observations from a re-analysis of the deposited data

Results flagged for a closer look

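Among the named genes beside or related to the alkaline phosphatases, the limma interaction term of UHRF1 depletion and TSA passed the threshold for 6. Over all tested probes it passed for 1203 of 24589. By list, 3 phosphate, 3 trophoblast and 3 germ cell genes were called higher. Called lower were 1 anchor gene, 2 brush border genes, 1 transcription factor and 3 other GPI-anchored genes. The term was 1.54 for ENPP1 (adjusted p 0.0237) and −1.04 for KLF4 (adjusted p 0.0394), which were above background on all 8 arrays. For ECEL1P2 it was 5.99, for PRSS56 3.79, for ZFP42 4.16 and for DPPA2 3.98. With the siCONT arrays counted as 1 sample all 6 missed the threshold, with adjusted p between 0.189 and 0.555. ECEL1P2, ZFP42 and DPPA2 were below background in 3 of the 4 groups and PRSS56 in both mock groups, so their values are no sizes or bounds, and since these 4 entered the test only through groups in which they are bright, they are given as a description. ALPPL2 had an interaction of 4.31, which was among the values that chose it. Groups of 2 arrays allow no search for single deviating arrays.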

How the results depend on the processing

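With the replicate number as a block (replicate block), the combined change against siCONT mock stayed 6.29 for both ALPP and ALPPL2, probes called were 811, 4362 and 6131 for depletion, TSA and both, the interactions of PRSS56, ZFP42 and KLF4 missed the threshold (adjusted p 0.0588, 0.0633 and 0.0542), and VIL1 and XLOC_000371 passed it for both agents (0.0356 and 0.0284). The authors' table gave 6.29 and 6.29. Normexp gave ALPP 4.17 (TSA), 5.04 (both) and 5.01 (TSA in depleted cells), and ALPPL2 6.02 and 6.03 for the last pair. Median scaling gave ALPP 5.89 (both), 0.55 (depletion under TSA), 5.65 (TSA in depleted cells) and 0.31 (interaction), and ALPPL2 5.89, 3.91, 5.95 and 3.97; the percentile over detected probes gave ALPPL2 6.53 (both). Leaving out single arrays gave ALPP 5.90 to 6.69 (both), 0.51 to 1.30 (depletion under TSA), 5.64 to 6.43 (TSA in depleted cells) and 0.25 to 1.05 (interaction), the extremes without one siRNA under TSA, and ALPPL2 −0.27 to 0.17 (depletion under mock), 6.12 to 6.56 (TSA in depleted cells) and 4.09 to 4.53 (interaction), the extremes without one siRNA under mock. Probes called for depletion alone were 5 (siCONT arrays as 1 sample), 302 (normexp), 406 (no filter) and 88 to 1894 (single arrays out, the extremes without siCONT mock array 2 and siUHRF1-1), against 921; for TSA 362 and 1713 in the first pair, against 4317; for both 3662, 2644 and 3881 (probes above background on all arrays), against 6077. List calls for both agents moved most with siCONT as 1 sample (phosphate 7 of 11, brush border 2 of 4, transcription factors 0 of 2, germ cell 3 of 5, other GPI-anchored 9 of 18), normexp (phosphate 7, brush border 2, transcription factors 0, trophoblast 2 of 6, germ cell 1) and probes above background on all arrays (transcription factors 0, trophoblast 1, germ cell 1, other GPI-anchored 10). Median scaling gave 4 transcription factors. Single arrays out gave 4 to 7 anchor genes, 2 to 5 brush border genes, 1 to 3 factors and 3 to 6 germ cell genes. No called gene named here changed direction. The causes were not tested. ALPI and ALPL gave no value because neither was above background, so depth of signal limits them.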
